A study of Mus musculus with 6 samples.

Results

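The transcripts of the transforming growth factor beta (TGF-beta) family were followed in livers of male mice with or without a hepatocyte deletion of Prdx1, the gene of the peroxide-reducing enzyme peroxiredoxin 1. The genes were chosen by name: TGF-beta ligands, their latent binding proteins, activin and inhibin subunits, bone morphogenetic proteins (BMPs) and growth and differentiation factors (GDFs), the receptors, the SMAD proteins, SMURF ubiquitin ligases and a few secreted or membrane inhibitors. Gdf15 was not part of the set. Of 55401 genes listed, 60 fitted and had a count in at least 1 library, out of 27476 genes with such a count. Bmp8a, Grem1 and Nog fitted by name but had no count in any library.

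Prdx1(lox/lox);Alb-cre mice, called knockout below, numbered 3. In them, Cre recombinase under the albumin promoter deletes floxed DNA in hepatocytes. The 3 Prdx1(lox/lox) mice, called control below, carried the same floxed alleles without the transgene. Effects of Cre itself and of the deletion cannot be told apart in this design. All mice started at 8 weeks of age and spent 5 weeks on MCD, the usual abbreviation of a diet lacking methionine and choline. No group on another diet was analysed here. Deposited counts totalled 58790874 to 78291273 in knockout libraries and 63189210 to 67319086 in control libraries. Prdx1 itself was at 78.7, 111 and 75.4 CPM in knockout livers, against 644, 570 and 663 CPM in control livers, in the direction of the labels. CPM here are deposited counts divided by library size after TMM scaling, a correction for differences in library composition.

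TGF-beta family ligands are secreted dimers that bring together type I and type II serine/threonine kinase receptors. TGF-betas and activins signal mainly through SMAD2 and SMAD3, BMPs mainly through SMAD1, SMAD5 and SMAD9, and both branches share SMAD4. In liver, TGF-beta drives matrix production by stellate cells and fibroblasts, while BMP signals from endothelial cells set the output of the iron hormone hepcidin in hepatocytes.

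Most family members that changed were higher in the knockouts. Of the 60 members, 54 had enough counts to be tested, 30 rose, 4 fell and 20 did not pass the threshold, a Benjamini-Hochberg adjusted p under 0.05 in edgeR's quasi-likelihood fit of all 18931 tested genes. Among all tested genes, 19.9% rose and 18.0% fell. The median log2 fold change of knockout over control was 0.60 over the tested members and 0.05 over all tested genes. At a log2 fold change of at least 1 in size, 20 members rose and 2 fell, where all genes gave 12.3% higher and 3.83% lower. In CPM, the 3 knockout livers lay above the 3 control livers in 35 of the 54 members and below them in 5, where 28.8% and 24.2% of all genes did so. With library sizes alone as the scaling, 37 members rose and 2 fell, and over all genes 6459 rose and 1249 fell in place of 3767 and 3415. That scaling moved the median of all genes to 0.41. Without knockout replicate 2, control replicate 1 or control replicate 2, only 2 members fell.

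**Figure D1:**
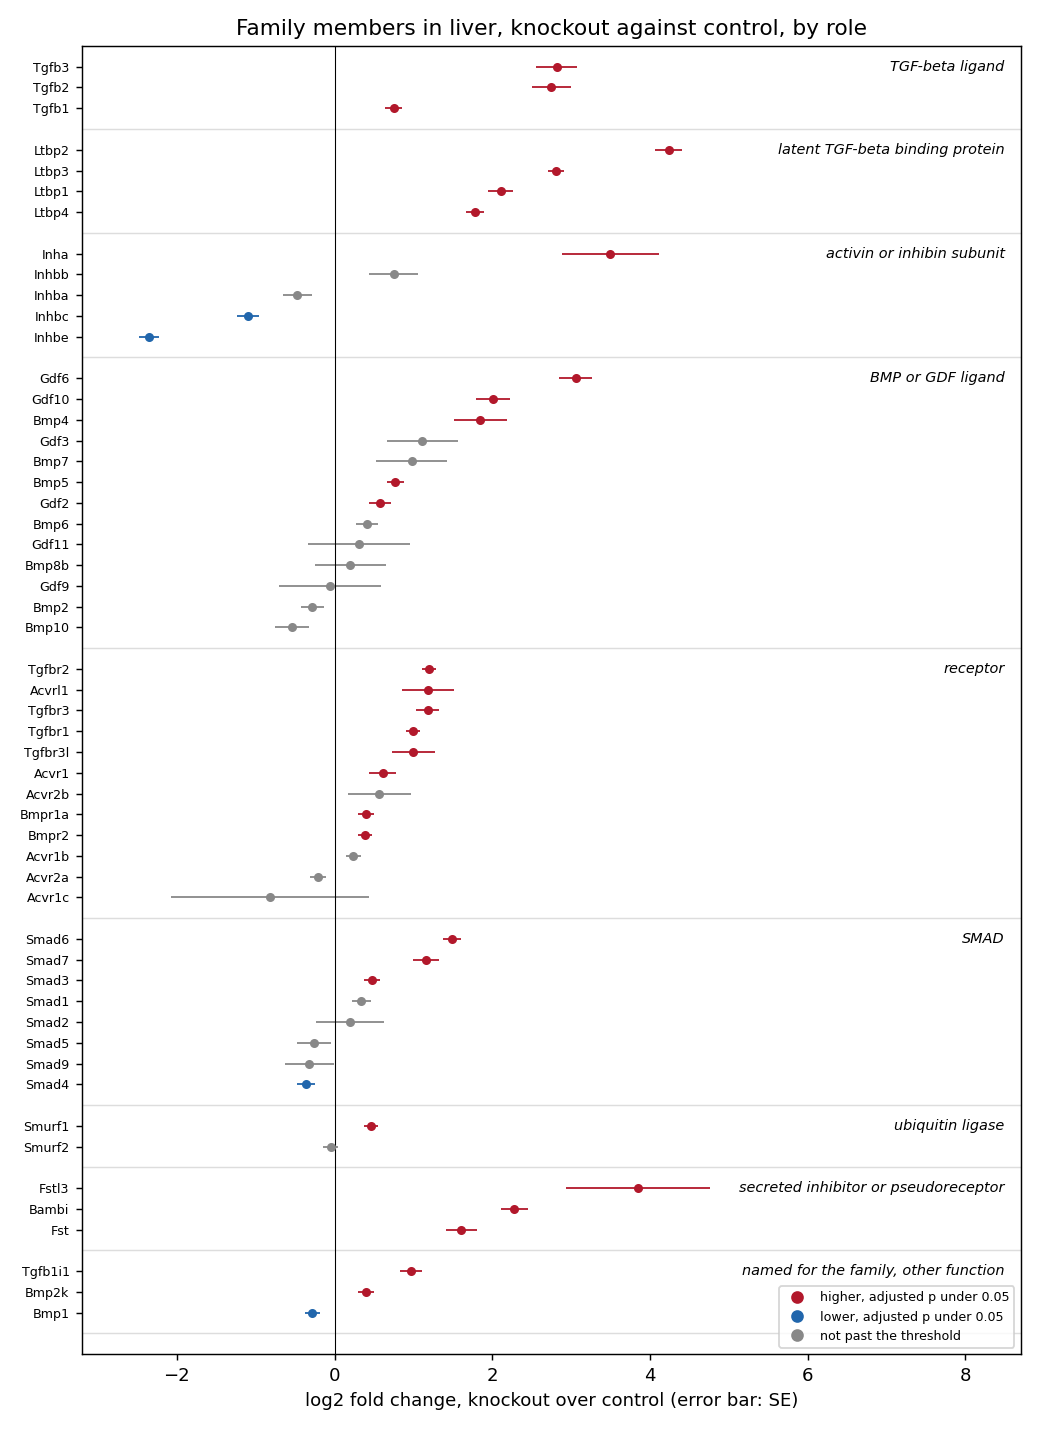
Log2 fold change of knockout over control for the tested members described in the text, grouped by role, with the standard error (SE) as bars and n = 3 mice per group. All TGF-beta ligands and latent binding proteins lie to the right of 0, and Inhbe at -2.35 and Inhbc at -1.10 lie farthest left among the genes past the threshold.

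Markers of several liver cell types also changed, where 19.9% of all tested genes rose and 18.0% fell. Of 18 stellate cell markers, 11 rose and 5 fell, and their summed level was 1730 to 2090 CPM in knockouts and 941 to 945 CPM in controls. Of 10 tested portal fibroblast markers, 7 rose and 1 fell, at 285 to 309 CPM in knockouts and 33.5 to 40.6 CPM in controls. All 17 bile duct markers rose, at 1300 to 1510 CPM in knockouts and 103 to 116 CPM in controls. Much of the stellate, portal fibroblast and bile duct sums came from Dcn, Eln and Spp1. In knockouts, Dcn was at 748 to 874 CPM, Eln at 177 to 214 CPM and Spp1 at 878 to 1040 CPM. In controls they were at 317 to 343, 7.21 to 10.1 and 44.1 to 60.5 CPM. Of 18 macrophage and Kupffer cell markers, 17 rose and 0 fell, at 3900 to 4170 CPM in knockouts and 1620 to 1850 CPM in controls. Of 14 hepatocyte markers, 11 fell and 0 rose, at 62000 to 78000 CPM in knockouts and 108000 to 132000 CPM in controls. Of 19 sinusoidal endothelial markers, 4 rose and 5 fell, not far from the shares of all genes. Their sum was 1300 to 1510 CPM in knockouts and 1410 to 1560 CPM in controls. Among lymphocytes, 7 of 12 markers of T and NK cells were higher and 0 lower, and for B and plasma cells 3 of 9 were higher and 2 lower. Neutrophil markers were higher in 3 of 6 tested cases and lower in 0. Of these, Csf3r, named after its value was seen, averaged 26.3 CPM in knockouts and 9.79 CPM in controls. Retnlg, which did not pass, lay the other way, at 0.662 CPM in knockouts and 1.11 CPM in controls on average. The untested neutrophil marker Ly6g was at 0 in all libraries. The pancreas and fat markers Prss1, Cpa1, Pnlip, Amy2a5, Adipoq and Lep were also at 0 in all libraries. In these bulk libraries, fewer cells of a type and less RNA per cell cannot be told apart, and the part of these markers in the family's changes was not tested.

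The TGF-beta ligands rose together, and the isoforms that were scarce in controls rose most. Tgfb3, an isoform with strong roles in mesenchyme (chromosome 12, 86056745 to 86079041, minus strand, GRCm38), stood at 21.8, 23.6 and 27.2 CPM in knockout livers, against 4.76, 3.08 and 2.41 CPM in control livers. Tgfb2 (chromosome 1, 186622792 to 186705989, minus strand) stood at 8.78, 10.7 and 11.7 CPM in knockout livers, against 1.12, 2.00 and 1.49 CPM in control livers. Tgfb1, the isoform of immune cells and fibrotic liver, stood at 47.0, 48.4 and 51.2 CPM in knockout livers, against 31.5, 25.5 and 30.2 CPM in control livers. In each case the lowest knockout liver lay above the highest control liver. The log2 fold changes were 2.82 ± 0.26 for Tgfb3, 2.75 ± 0.25 for Tgfb2 and 0.75 ± 0.11 for Tgfb1 (SE). The adjusted p-values by edgeR were 0.000208, 0.000228 and 0.00137 in the same order.

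The mix of isoforms shifted with these changes. Per length, as deposited FPKM, a level corrected for transcript length and depth, Tgfb1 was the highest of the isoforms in every library, followed by Tgfb3 and then Tgfb2, with no overlap between neighbours in this order within a group. Tgfb1 made up 52.1% ± 1.87 of the summed FPKM of the 3 ligands in knockouts and 81.9% ± 3.61 in controls (SD, n = 3 each). Tgfb3 made up 38.3% ± 1.33 in knockouts and 14.2% ± 3.87 in controls. Tgfb2 made up 9.57% ± 0.706 in knockouts and 3.86% ± 1.51 in controls. These shares are taken within a library and do not depend on the scaling between libraries.

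All 4 latent TGF-beta binding proteins rose, by 1.78 to 4.24 on the log2 scale, where 19.9% of all tested genes rose. These large matrix proteins tether the latent ligand complex to fibrillin fibres, except LTBP2, which is a fibrillin-binding matrix protein that does not bind the latent ligand. Ltbp2 had the largest log2 fold change of all tested members, 4.24 ± 0.17 (SE, adjusted p = 1.36e-05 by edgeR). It stood at 56.7, 52.1 and 48.1 CPM in knockout livers, against 2.30, 2.60 and 3.40 CPM in control livers. Ltbp3, needed for secretion of the latent complex, stood at 51.2, 54.2 and 56.3 CPM in knockout livers, against 7.39, 7.97 and 7.72 CPM in control livers. Ltbp1, a carrier of the latent complex in matrix, stood at 33.4, 39.3 and 39.2 CPM in knockout livers, against 7.71, 7.61 and 10.7 CPM in control livers. The log2 fold changes were 2.81 ± 0.10 for Ltbp3, 2.11 ± 0.16 for Ltbp1 and 1.78 ± 0.11 for Ltbp4 (SE). None of these groups overlapped. Summed levels of stellate cell and portal fibroblast markers were higher in the same livers, and their part was not tested.

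Ltbp4, which also supports elastic fibre assembly, was the most abundant latent binding protein per length in all 6 libraries. It stood at 212, 220 and 216 CPM in knockout livers, against 54.7, 61.4 and 72.4 CPM in control livers. It held 67.9% ± 0.184 of the summed FPKM of the 4 genes in knockouts and 83.0% ± 0.527 in controls (SD, n = 3 each). Ltbp2 held 13.0% ± 1.19 in knockouts and 2.86% ± 0.197 in controls. The share of Ltbp1 was 7.08% ± 0.555 in knockouts and 6.87% ± 0.595 in controls, and the ranges overlapped.

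**Figure D2:**
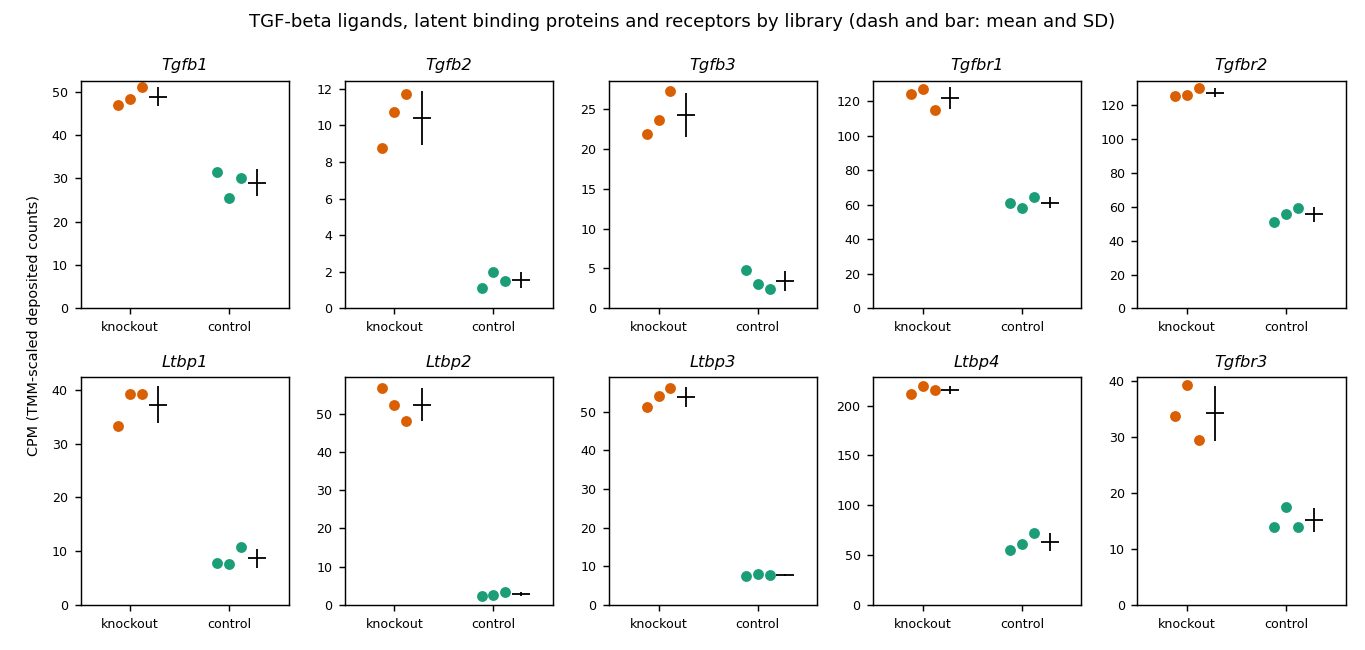
CPM by library for the TGF-beta ligands, their receptors and the latent binding proteins, with each point 1 mouse and the dash and bar the mean and SD of 3 mice. In every panel the knockout points lie above the control points, and the fold difference is largest for Ltbp2, at 52.3 ± 4.30 CPM in knockouts and 2.77 ± 0.571 CPM in controls.

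The stretch of 250 bases before the RefSeq start site is shown for Ltbp2, the member that rose most, on build GRCm38.p6. It is also shown for Ltbp1, which rose less than Ltbp3. The stretches of Ltbp3 and Ltbp4 are not shown. Letters are lower case, and capitals mark a match to one of the motifs searched on both strands: GTCTAGAC (palindromic SMAD box), GGCGCC (GC-rich SMAD box), TGANTCA (AP-1 site), TGATGNAA (ATF4-type element) and TGACGTCA (cyclic AMP response element).
Ltbp2, chr12:84876492-84876741, minus strand: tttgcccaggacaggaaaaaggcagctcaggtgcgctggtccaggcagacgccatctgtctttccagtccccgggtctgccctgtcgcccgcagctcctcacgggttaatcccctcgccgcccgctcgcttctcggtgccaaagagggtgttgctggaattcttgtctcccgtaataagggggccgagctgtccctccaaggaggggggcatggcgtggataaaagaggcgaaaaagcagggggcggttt
Ltbp1, chr17:75005279-75005528, plus strand: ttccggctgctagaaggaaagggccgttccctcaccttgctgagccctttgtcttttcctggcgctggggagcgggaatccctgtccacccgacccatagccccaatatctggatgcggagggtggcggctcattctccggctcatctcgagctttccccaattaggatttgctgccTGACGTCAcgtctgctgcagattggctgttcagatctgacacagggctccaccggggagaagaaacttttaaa
The Ltbp1 stretch holds TGACGTCA, which 1.55% of the 32851 promoters in the RefSeq table hold, and the Ltbp2 stretch holds none of the motifs. No other member promoter searched holds TGACGTCA. A second RefSeq start of Ltbp1 has none of them before it. Promoters were found for 42 of the 60 members, 52 promoters in all. GGCGCC was in 19.2% of them, those of Bmp2k, Bmpr1a, Bmpr2, Gdf1, Ltbp4, Smad5, Smad9, Smurf2 and Tgfbr1, and in 9.59% of all promoters. The palindromic SMAD box was in 0 of the 52 and in 0.167% of all promoters. The AP-1 letters were in 0 of the 52 and in 6.75% of all promoters. A match describes letters only.

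The activin and inhibin subunits split by gene. The subunits made chiefly by hepatocytes, Inhbe and Inhbc, fell, while Inha, the alpha subunit of inhibins, which antagonise activins, rose at a low level. Inhbe stood at 29.4, 28.9 and 28.1 CPM in knockout livers, against 134, 174 and 131 CPM in control livers. Inhbc stood at 30.0, 41.3 and 38.2 CPM in knockout livers, against 74.1, 87.2 and 73.4 CPM in control livers. All knockout livers lay below all control livers for both genes. The log2 fold change was -2.35 ± 0.13 for Inhbe (SE, adjusted p = 3.74e-05 by edgeR) and -1.10 ± 0.14 for Inhbc (SE, adjusted p = 0.000844 by edgeR). The 14 hepatocyte markers had a median log2 fold change of -0.80 in the same livers, and their part was not tested.

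Inha stood at 2.56, 3.32 and 2.66 CPM in knockout livers, against 0.482, 0.0684 and 0.205 CPM in control livers. The log2 fold change was 3.50 ± 0.62 (SE, adjusted p = 0.00371 by edgeR), and 4.36 without control replicate 1. Inhba, the activin A subunit, averaged 13.3 ± 1.51 CPM in knockouts and 18.5 ± 3.91 CPM in controls (SD, n = 3 each, adjusted p = 0.0705 by edgeR). Without control replicate 3 its log2 fold change was -0.62, with an adjusted p of 0.0229 by edgeR. Inhbb, the activin B subunit, stood at 42.9, 42.6 and 19.1 CPM in knockout livers, against 21.6, 15.9 and 24.8 CPM in control livers. Knockout replicate 3 lay within the control range, the log2 fold change was 0.75 ± 0.31 (SE) and the adjusted p by edgeR was 0.0982. Without that library the log2 fold change was 1.05, with an adjusted p of 0.00738 by edgeR. With all libraries it passed in DESeq2 (0.75, adjusted p 0.0317) and with library sizes alone (1.12, adjusted p 0.0266).

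Per length, Inhbc was the leading subunit in every library. Inhbe was second in every control liver, while in knockouts it shared the second place with Inhbb, which lay above it in replicates 1 and 2 and below it in replicate 3. Inhbc and Inhbe together made up 67.4% ± 6.94 of the summed FPKM of the 5 subunits in knockouts and 89.6% ± 2.30 in controls (SD, n = 3 each). Inhbb made up 21.8% ± 7.93 in knockouts and 6.42% ± 1.9 in controls.

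**Figure D3:**
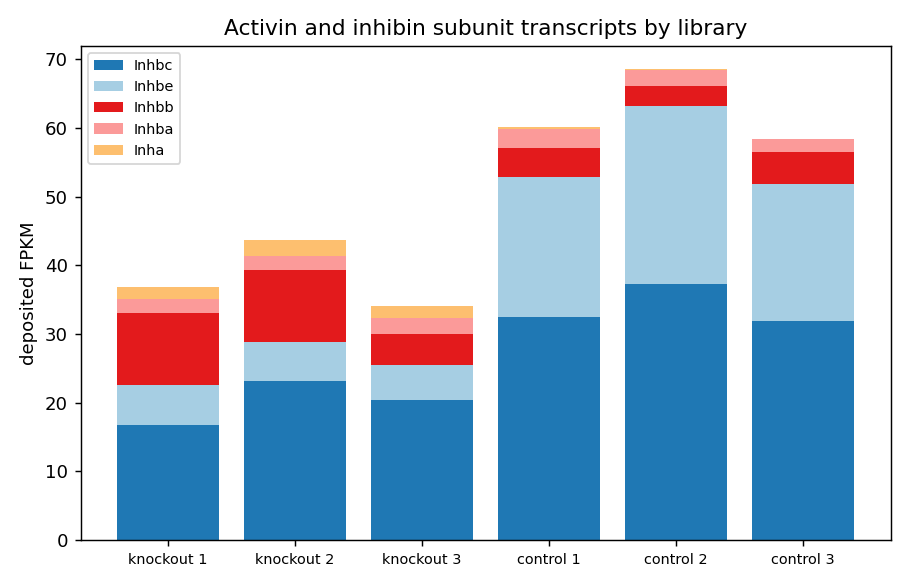
Deposited FPKM of the 5 activin and inhibin subunits, stacked for each library. The stacks reach 34.1 to 43.7 FPKM in knockouts and 58.4 to 68.6 FPKM in controls, and the Inhbe layer is 5.22 to 5.76 FPKM in knockouts and 19.9 to 26.0 FPKM in controls.

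Inhbe and Inhbc are neighbours on chromosome 10 (127348857 to 127354411 and 127356322 to 127370431, minus strand, GRCm38), with 1910 bases and no listed gene between them. The 250 bases before the RefSeq start of each are shown because both genes fell, with capitals marking the same motifs as above. The listed Inhbe gene begins farther upstream than the RefSeq start used here.
Inhbe, chr10:127351849-127352098, minus strand: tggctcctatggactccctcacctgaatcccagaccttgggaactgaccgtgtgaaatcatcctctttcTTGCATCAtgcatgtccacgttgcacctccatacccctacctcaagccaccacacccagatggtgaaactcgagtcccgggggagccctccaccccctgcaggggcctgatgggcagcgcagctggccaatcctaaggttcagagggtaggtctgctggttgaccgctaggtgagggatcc
Inhbc, chr10:127370549-127370798, minus strand: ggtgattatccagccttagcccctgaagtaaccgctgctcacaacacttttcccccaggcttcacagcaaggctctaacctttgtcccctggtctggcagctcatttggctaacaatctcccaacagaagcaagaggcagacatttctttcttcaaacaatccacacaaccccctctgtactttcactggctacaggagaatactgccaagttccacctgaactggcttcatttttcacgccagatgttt
The capitals in the Inhbe stretch are the reverse complement of TGATGNAA, an element of the kind bound by the stress factor ATF4, found in 3.45% of all promoters and in 3.85% of the 52 member promoters. The Inhbc stretch holds none of the motifs.

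Among BMP and GDF ligands, 18 members had counts and 13 were tested, of which 5 rose, 0 fell and 8 did not pass. Over all tested genes the shares were 19.9% higher and 18.0% lower. The genes that rose most are not the ones best known as liver BMPs. Gdf6, a ligand of joint and eye development (chromosome 4, 9844372 to 9862345, plus strand), stood at 15.7, 19.1 and 25.5 CPM in knockout livers, against 2.68, 2.38 and 2.17 CPM in control livers. Gdf10, also called BMP3B, stood at 98.4, 103 and 64.2 CPM in knockout livers, against 17.5, 26.2 and 21.9 CPM in control livers. Bmp4, a mesenchymal BMP, stood at 6.16, 5.02 and 7.08 CPM in knockout livers, against 1.87, 0.940 and 2.26 CPM in control livers. The groups did not overlap in any of the 3 genes. The log2 fold changes of Gdf6, Gdf10 and Bmp4 were 3.06 ± 0.21, 2.01 ± 0.22 and 1.85 ± 0.34 (SE), with adjusted p-values of 7.66e-05, 0.000433 and 0.00434 by edgeR.

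Bmp5 averaged 39.6 ± 4.23 CPM in knockouts and 23.2 ± 1.58 CPM in controls (SD, n = 3 each), a log2 fold change of 0.77 ± 0.11 (SE, adjusted p = 0.00154 by edgeR). Of the bases in its exons, 46.7% are also covered by Gm26903 on the other strand. Gdf2 encodes BMP9, a circulating ligand made in liver that acts on endothelium, and it was the most abundant ligand of this group per length. It stood at 71.6, 76.9 and 54.4 CPM in knockout livers, against 45.6, 40.9 and 49.0 CPM in control livers. Its log2 fold change was 0.58 ± 0.14 (SE, adjusted p = 0.0150 by edgeR), and it missed the threshold when knockout replicate 1 (adjusted p 0.0568), knockout replicate 2 (0.0565) or control replicate 2 (0.0504) was left out. Bmp10, its close relative, stood at 13.6, 8.81 and 7.70 CPM in knockout livers, against 14.3, 13.5 and 16.1 CPM in control livers, with an adjusted p of 0.0897 by edgeR. Without knockout replicate 1 its log2 fold change was -0.82, with an adjusted p of 0.0135.

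The BMPs that liver endothelium uses to control hepcidin did not pass the threshold in the main test. Bmp6 stood at 18.3, 14.4 and 14.4 CPM in knockout livers, against 12.8, 11.1 and 11.5 CPM in control livers. The groups did not overlap, yet the adjusted p by edgeR was 0.0571. With library sizes alone its log2 fold change was 0.78 with an adjusted p of 0.00531, and with limma on FPKM it was 0.65 with an adjusted p of 0.00910. Bmp6 also passed with counts divided by 4 (0.42, adjusted p 0.0487 by edgeR) and in the other limma fits (adjusted p 0.00881 to 0.0165). Bmp2 averaged 35.9 ± 2.92 CPM in knockouts and 43.7 ± 8.18 CPM in controls (SD, n = 3 each), with an adjusted p of 0.173 by edgeR. Bmp7, Bmp8b, Gdf3, Gdf9 and Gdf11 lay between 0.343 and 2.33 CPM in every knockout liver and between 0.205 and 2.48 CPM in every control liver, and none passed. Gdf3 passed with library sizes alone (adjusted p 0.0323) and in the 3 limma fits with a filter (0.0349 to 0.0427), and Bmp7 with library sizes alone (0.0450). Bmp3, Bmp15, Gdf1, Gdf5, Gdf7 and the receptor Bmpr1b reached at most 22 counts in any library and were not tested. All exon bases of Gdf1 are shared with Cers1 on the same strand.

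Of 13 receptor genes, 12 were tested, 8 rose and 4 did not pass, beside 19.9% higher and 18.0% lower among all genes. Tgfbr1, Tgfbr2 and Tgfbr3, which bind TGF-beta itself, were among those that rose. Tgfbr2, the type II receptor that binds TGF-beta, stood at 125, 126 and 130 CPM in knockout livers, against 51.1, 55.6 and 59.4 CPM in control livers. Tgfbr1, its type I partner and the most abundant receptor per length, stood at 124, 127 and 115 CPM in knockout livers, against 61.2, 58.1 and 64.6 CPM in control livers. The co-receptor betaglycan, Tgfbr3, stood at 33.9, 39.4 and 29.6 CPM in knockout livers, against 14.0, 17.6 and 13.9 CPM in control livers. No control liver reached the lowest knockout liver in these genes, whose log2 fold changes were 1.20 ± 0.09, 1.0 ± 0.09 and 1.18 ± 0.15 (SE). The adjusted p-values by edgeR were 8.58e-05, 0.000169 and 0.000866.

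Acvrl1 encodes ALK1, the endothelial type I receptor for BMP9 and BMP10. It stood at 11.5, 19.3 and 10.9 CPM in knockout livers, against 8.46, 5.90 and 3.94 CPM in control livers, a log2 fold change of 1.19 ± 0.33 (SE, adjusted p = 0.0234 by edgeR). It missed the threshold without knockout replicate 2 (adjusted p 0.0840), control replicate 2 (0.0678) or control replicate 3 (0.0573). Tgfbr3l, a betaglycan-like inhibin co-receptor of the pituitary, stood at 3.85, 5.67 and 6.74 CPM in knockout livers, against 3.05, 2.21 and 2.89 CPM in control livers. Its log2 fold change was 1.0 ± 0.27 (SE, adjusted p = 0.0210 by edgeR), a call lost without knockout replicate 2 (adjusted p 0.0680), knockout replicate 3 (0.0775) or control replicate 2 (0.0599). Of its exon bases, 52.2% are shared with Gm49320 on the same strand.

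Bmpr1a, Bmpr2 and Acvr1, receptors of BMPs, rose as well, while Acvr2a, listed with them for BMP and iron sensing below, did not pass. The log2 fold change of Acvr2a was -0.21, with an adjusted p of 0.146 by edgeR. Bmpr1a, the type I receptor of BMP signalling in hepatocytes, rose by 0.40 ± 0.10, Bmpr2 by 0.39 ± 0.09 and Acvr1 by 0.61 ± 0.17 on the log2 scale (SE), with adjusted p-values of 0.0135, 0.0111 and 0.0269 by edgeR. The Acvr1 call was lost with the replicate number as a block (adjusted p 0.0517) and without knockout replicate 1 or 3 or control replicate 1 or 3, with adjusted p-values of 0.0655 to 0.0901 by edgeR. The receptors that chiefly bind or transmit activin signals did not pass, though Acvr1b did with library sizes alone (0.61 on the log2 scale, adjusted p 0.00189) and in all 4 limma fits on FPKM (0.51 to 0.58), against 0.24 here. Acvr1b averaged 32.2 ± 2.63 CPM in knockouts and 27.2 ± 1.33 CPM in controls, and Acvr2a averaged 24.5 ± 1.79 CPM in knockouts and 28.3 ± 1.25 CPM in controls (SD, n = 3 each). Acvr2b averaged 2.46 ± 1.07 CPM in knockouts and 1.66 ± 0.290 CPM in controls, and Acvr1c was at most 0.272 CPM in knockouts and 0.394 CPM in controls.

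Among the 8 SMADs, the inhibitory ones rose most. Smad6, which blocks BMP signalling and is induced by it, stood at 30.8, 31.4 and 25.7 CPM in knockout livers, against 9.86, 11.2 and 10.3 CPM in control livers. Smad7, which blocks TGF-beta receptors and is induced by TGF-beta, stood at 42.9, 47.8 and 32.2 CPM in knockout livers, against 15.4, 20.6 and 18.9 CPM in control livers. The groups did not overlap for either gene, and the log2 fold changes were 1.49 ± 0.12 and 1.16 ± 0.17 (SE, adjusted p = 0.000150 and 0.00171 by edgeR). Smad6 and Smad7 together held 33.8% ± 2.58 of the summed SMAD FPKM in knockouts and 16.1% ± 0.597 in controls (SD, n = 3 each).

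Of the SMADs that carry the signal, Smad3 rose, Smad4 fell and 4 did not pass, beside 19.9% higher and 18.0% lower among all genes. Smad3, the effector of TGF-beta and activin, rose by 0.48 ± 0.10 on the log2 scale (SE, adjusted p = 0.00881 by edgeR), with 34.0, 34.6 and 37.9 CPM in knockout livers, against 25.9, 27.3 and 23.1 CPM in control livers. Smad4, the shared partner and the most abundant SMAD per length, stood at 36.4, 44.2 and 44.9 CPM in knockout livers, against 52.1, 56.7 and 51.9 CPM in control livers. Its log2 fold change was -0.36 ± 0.11 (SE, adjusted p = 0.0329 by edgeR), but 0.01 with library sizes alone and -0.01 with limma on FPKM, and leaving out any library except knockout replicate 3 took the adjusted p to between 0.0543 and 0.0966. Smad2 stood at 15.3, 34.7 and 32.7 CPM in knockout livers, against 15.0, 39.9 and 17.4 CPM in control livers, so that the groups overlapped.

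Smad1 averaged 23.1 ± 2.30 CPM in knockouts and 18.2 ± 1.28 CPM in controls (SD, n = 3 each), with no overlap and an adjusted p of 0.0545 by edgeR. It passed with library sizes alone (0.72 on the log2 scale, adjusted p 0.00359), in all 4 limma fits on FPKM (adjusted p 0.00823 to 0.0146), with counts divided by 4 (0.0442) and without knockout replicate 3 (0.0394). Smad5 stood at 64.9, 34.0 and 40.7 CPM in knockout livers, against 52.8, 60.1 and 54.3 CPM in control livers, so that knockout replicate 1 lay above all controls and the other two below them. Without knockout replicate 1 its log2 fold change was -0.57 with an adjusted p of 0.0167 by edgeR, against -0.26 with all libraries and 0.11 with library sizes alone. Smad9, a BMP effector that BMP signals also induce, stood at 25.4, 35.8 and 13.7 CPM in knockout livers, against 27.7, 28 and 37.6 CPM in control livers, and the groups overlapped.

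**Figure D4:**
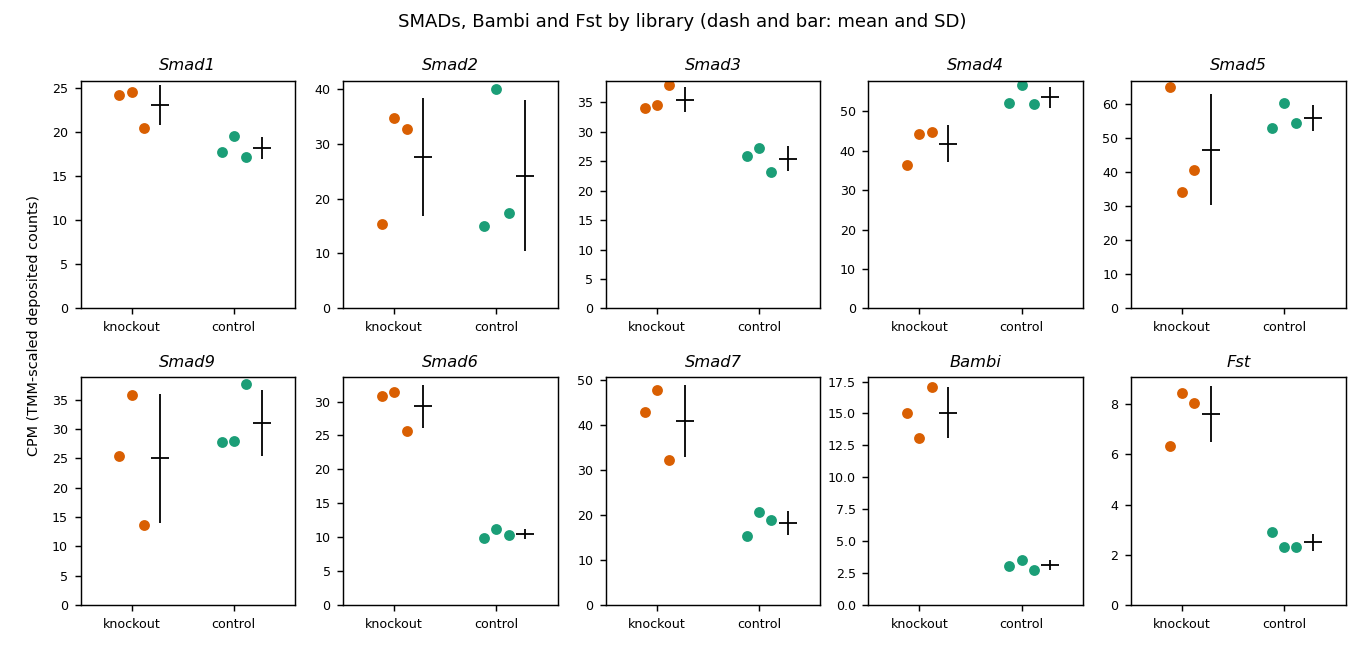
CPM by library for the SMADs and the inhibitors Bambi and Fst, with each point 1 mouse and the dash and bar the mean and SD of 3 mice. Smad6, Smad7, Bambi and Fst separate the groups, with Smad6 at 25.7 to 31.4 CPM in knockouts and 9.86 to 11.2 CPM in controls, while the groups overlap for Smad2, Smad5 and Smad9.

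Inhibitors acting at or outside the cell surface rose in 3 of 4 cases, where 19.9% of all tested genes rose. Bambi, a pseudoreceptor without a kinase that dampens TGF-beta signalling, stood at 15.0, 13.1 and 17.1 CPM in knockout livers, against 3.07, 3.50 and 2.74 CPM in control livers. Fst encodes follistatin, which traps activins, and stood at 6.34, 8.46 and 8.04 CPM in knockout livers, against 2.89, 2.29 and 2.31 CPM in control livers. Their groups did not overlap, and the log2 fold changes were 2.28 ± 0.17 and 1.61 ± 0.20 (SE, adjusted p = 0.000101 and 0.000857 by edgeR). Fstl3, a follistatin relative, stood at 6.57, 10.7 and 5.90 CPM in knockout livers, against 0.696, 0.906 and 0 CPM in control livers.

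The log2 fold change of Fstl3 was 3.85 ± 0.91 (SE, adjusted p = 0.0128 by edgeR). It was 4.47 without control replicate 2 and 3.26 without control replicate 3, and leaving out knockout replicate 2 ended the call (adjusted p 0.0514). Of its exon bases, 47.3% are also covered by Prss57 on the other strand, and whether counting used strand is not given in the sources used here. Smurf1, a ubiquitin ligase that marks SMADs and receptors for degradation, rose by 0.46 ± 0.09 on the log2 scale (SE, adjusted p = 0.00649 by edgeR). Smurf2 was the higher of the pair per length in every library, stood at 58.5, 64.1 and 65.7 CPM in knockout livers, against 68.2, 68.5 and 58.4 CPM in control livers, and had an adjusted p of 0.731 by edgeR. Its log2 fold change of -0.05 became 0.32 with library sizes alone, with an adjusted p of 0.0338 by edgeR.

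Genes that carry the family's names but are not ligands, receptors or SMADs moved in both directions. Tgfb1i1 encodes HIC-5, a focal adhesion protein of contractile cells, and stood at 11.8, 12.2 and 11.9 CPM in knockout livers, against 5.80, 5.78 and 6.79 CPM in control livers, a log2 fold change of 0.97 ± 0.14 (SE, adjusted p = 0.00137 by edgeR). Bmp2k, a kinase of the endocytic pathway, rose by 0.40 ± 0.10 on the log2 scale (SE, adjusted p = 0.0187 by edgeR), a call lost without knockout replicate 1 or 2 or control replicate 3 (adjusted p 0.0509 to 0.0764). Bmp1 encodes the protease that trims procollagens and stood at 101, 102 and 119 CPM in knockout livers, against 130, 136 and 126 CPM in control livers. Its log2 fold change was -0.28 ± 0.09 (SE, adjusted p = 0.0489 by edgeR), but 0.09 with library sizes alone, and the call was lost with the replicate block (adjusted p 0.0755) and without any 1 library except knockout replicate 3 (0.0712 to 0.150).

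Spread within groups was alike in the knockouts and controls, with a median coefficient of variation over the 54 tested members of 13.4% in knockouts and 14.1% in controls. Knockout replicates 1, 2 and 3 were the highest knockout library in 11, 24 and 19 members. The p-values measure only the spread between these mice.

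Targets of TGF-beta rose in most cases. Of 31 tested genes in a list of targets, 22 rose, 4 fell and 5 did not pass. Among all genes, 19.9% rose and 18.0% fell. The median log2 fold change was 0.97, against 0.05 over all genes. Of the 31 genes, 4 are family members counted above, among them Ltbp2, which had the smallest p of the list. Pmepa1, which feeds back on TGF-beta signalling by binding SMADs, stood at 32.9, 38.5 and 33.4 CPM in knockout livers, against 3.87, 4.17 and 3.52 CPM in control livers, with a log2 fold change of 3.18 ± 0.13. Connective tissue growth factor, Ccn2, averaged 205 CPM in knockouts and 57.4 CPM in controls, with a log2 fold change of 1.84 ± 0.13. The matrix protein gene Tgfbi averaged 393 CPM in knockouts and 135 CPM in controls, with a log2 fold change of 1.54 ± 0.10 (SE throughout). Those that fell, chosen after their values were seen, were Nox4 at -1.05, Bhlhe40 at -0.61, Fn1 at -0.48 and Postn at -0.46 on the log2 scale. Without knockout replicate 2 the number that fell was 2, and with library sizes alone it was 1. The list includes collagen and contractile genes such as Col1a1, Col3a1, Acta2 and Tagln, also named after their values were seen. Stellate cell markers had a median log2 fold change of 0.83 and portal fibroblast markers 2.2 in the same livers, and their part was not tested.

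BMP targets split. Of 15 tested genes, 6 rose, 1 fell and 8 did not pass, beside 19.9% higher and 18.0% lower among all genes. The median log2 fold change was 0.66, against 0.05 over all genes, and 4 of the 15 are family members. Hey1, a transcriptional repressor induced by BMP9 and Notch, rose by 1.87 ± 0.20 on the log2 scale (SE), beside Bambi, Smad6 and Smad7. Bambi, Smad6 and Smad7 are family members already counted above, so the list's rises and median are not separate from the family's. The remaining calls, named after their values were seen, were Id3 at 0.75, Rgs4 at -1.14 and Msx2, which averaged 0.318 CPM in knockouts and had no counts in controls. The fall of Rgs4 was lost with the replicate block, with library sizes alone and without any 1 knockout library or control replicate 1. Hepcidin, Hamp, averaged 815 CPM in knockouts and 891 CPM in controls, with an adjusted p of 0.721 by edgeR, and Id1 averaged 48.5 CPM in knockouts and 28.3 CPM in controls, with an adjusted p of 0.112 by edgeR. Both were chosen after their values were seen.

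Of 19 tested genes listed for BMP and iron sensing, 5 rose and 4 fell, while 10 stayed short of the threshold. Among all genes, 19.9% were higher and 18.0% lower. The median log2 fold change was -0.21, and 10 of the genes are family members. Without knockout replicate 2, control replicate 1 or control replicate 2 the number that fell was 2. The BMP co-receptor hemojuvelin, Hjv, averaged 50.2 CPM in knockouts and 94.4 CPM in controls, with a log2 fold change of -0.91 ± 0.16. The protease Tmprss6, which cleaves hemojuvelin, averaged 321 CPM in knockouts and 483 CPM in controls, with a log2 fold change of -0.59 ± 0.08. The related co-receptor Rgmb rose by 1.25 ± 0.16 and the scaffold Neo1, which binds hemojuvelin, by 0.89 ± 0.13 on the log2 scale (SE throughout). Hjv and Tmprss6 are made by hepatocytes, whose 14 markers had a median of -0.80, and the part of that shift was not tested.

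Extracellular modulators rose in 28 of 43 tested cases, 3 fell and 12 did not pass, beside 19.9% higher and 18.0% lower among all genes. The median log2 fold change was 1.04. The follistatin-like glycoprotein Fstl1 averaged 116 CPM in knockouts and 20.5 CPM in controls. Biglycan, Bgn, a TGF-beta-binding proteoglycan, averaged 752 CPM in knockouts and 193 CPM in controls. Adamtsl2, a microfibril protein that binds LTBP1, averaged 229 CPM in knockouts and 28.6 CPM in controls, and the gelatinase Mmp2 averaged 95.8 CPM in knockouts and 9.23 CPM in controls. Their log2 fold changes were 2.50 ± 0.10, 1.96 ± 0.09, 3.01 ± 0.14 and 3.38 ± 0.21 (SE). Among integrin subunits that help release TGF-beta from its latent complex, all chosen after their values were seen, Itgb8, Itgb6, Itgb5 and Itgb1 rose while Itgav, at 1.42 on the log2 scale with an adjusted p of 0.102 by edgeR, and Itgb3, at -0.56 with 0.442, did not pass. Itgb8 averaged 10.7 CPM in knockouts and 1.06 CPM in controls, and Itgb6 averaged 3.76 CPM in knockouts with no counts in controls. The genes that fell, Pcsk6 and Furin named after their values were seen, were Hjv and the proprotein convertases Pcsk6, at -1.16, and Furin, which cleaves family precursors, at -0.97. In the same livers, median log2 fold changes were 3.98 for bile duct markers, 0.83 for stellate cell and 2.2 for portal fibroblast markers. Hepatocyte markers were at -0.80, and the part of these shifts was not tested.

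Intracellular regulators moved both ways, with 16 of 42 tested genes higher, 10 lower and 16 not past the threshold, and a median of 0.20. Among all genes 19.9% were higher and 18.0% lower. Beside Pmepa1, the phosphatase gene Ctdspl rose by 1.74 ± 0.20 and the SMAD-interacting repressor Zeb2 by 1.16 ± 0.15 on the log2 scale. Strap, which stabilises SMAD7 at the receptor, fell by 0.79 ± 0.08 on the log2 scale (SE throughout). The number that rose was 10 without control replicate 1, and 11 to 14 without any other 1 library, and with library sizes alone the number that fell was 3.

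**Figure D5:**
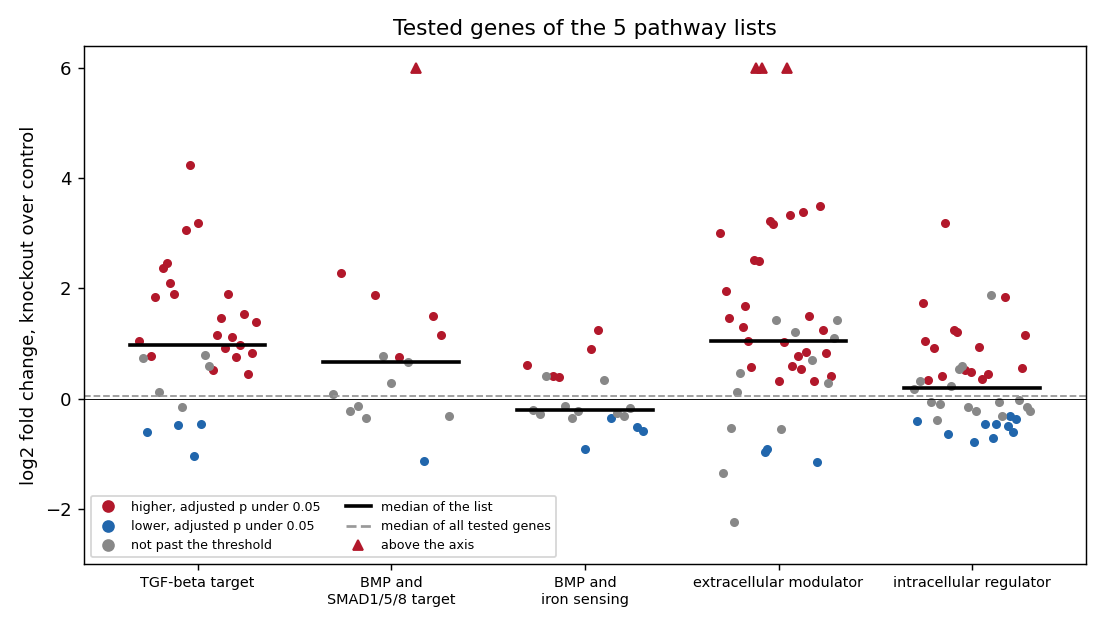
Log2 fold change of knockout over control for each tested gene of 5 pathway lists, with the list median as a bar and the median of all tested genes as a dashed line. The medians are 0.97 for TGF-beta targets, 0.66 for BMP targets, -0.21 for BMP and iron sensing, 1.04 for extracellular modulators and 0.20 for intracellular regulators, and triangles mark fitted values above the axis, of which those of Itgb6, Fstl4 and Msx2 have no control counts.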

How the data were processed

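Liver poly(A) RNA of 6 mice was sequenced, and 1 deposited table lists 55401 genes, each with counts and FPKM by library. The deposited counts are whole numbers treated as estimated counts, because low values cluster at multiples of 4: control library 1 has 854 genes at 4, 280 at 3 and 167 at 5. No counting intervals are given. FPKM values were made by the authors and are 0.0001 where the count is 0. The submitters' processing notes name StringTie 1.3.4d, HISAT2 2.0.4 and cutadapt 1.9 beside edgeR, DESeq2 and UMI-tools, without roles. The notes list mm9, but 94.2% of 55141 gene identifiers had the position of GENCODE M21 on GRCm38. Per the file headers, columns are named wt and AlbCRE. AlbCRE matches the Alb-cre label, and wt was taken as the only other genotype.

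The counts went into edgeR 4.0.16 under R 4.3.3. filterByExpr chose the genes (minimum count 10, minimum total 15) which were scaled by TMM, with genotype as the only term in a two-sided quasi-likelihood test and a Benjamini-Hochberg threshold of 0.05 over 18931 genes. The plan allowed for raw counts, and the test was run on estimated ones. The test was also run on simulated counts with few changed genes and no set difference in library composition. That run does not bear on the choice of scaling. SEs of log2 fold changes come from the F statistic. Alternatives were RLE factors, library sizes alone, DESeq2 1.42.0, no filter, limma 3.58.1 on log2(FPKM + 0.5) with a mean FPKM of at least 0.1 (also pseudocounts 1 and 0.1, and no filter), counts divided by 4, a replicate block and leaving out each library. The members, the pathway lists, the markers and the motifs were chosen with earlier results of these data known. Values in all 6 libraries are given for members past the threshold with a log2 fold change of at least 1 in size and for the highest member of each role, and in each list the 4 genes with the smallest p are named, and any other gene is said to be picked with its value in view. Replicate numbers were not treated as pairs, since the labels tie them to no shared litter or day. Promoter sequences are from RefSeq on GRCm38.p6. A few single-gene values are not reported here, though the counts include those genes.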

Additional observations from a re-analysis of the deposited data

How the results depend on the processing

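Of the 34 members past the threshold, 26 kept their direction and their call in all 16 alternatives, 24 of them higher and 2, Inhbe and Inhbc, lower. The number of members that rose was 25 to 30 when a library was left out and 29 to 37 elsewhere. The number that fell was 2 with library sizes alone, without a filter on counts and in all 4 limma fits on FPKM, against 4 in the main test, and 2 to 5 when a library was left out. The members past the threshold whose sign turned were Smad4, at 0.01 on the log2 scale with library sizes alone, and Bmp1, at 0.09 with library sizes alone and 0.06 in each limma fit. Smurf2, which did not pass in the main test, was at 0.32 with library sizes alone, 0.28, 0.27 and 0.30 with limma at pseudocounts of 0.5, 1 and 0.1. Beside Smurf2, members not past the threshold that gained a call were Acvr1b, Smad1, Bmp6, Gdf3, Bmp7 and Inhbb with library sizes alone, and Acvr1b, Smad1, Bmp6 and Gdf3 with limma. For the lists, library sizes alone gave 1 TGF-beta target, 0 BMP targets, 2 iron sensing genes and 3 intracellular regulators that fell. The limma fits on FPKM gave the same numbers, except 1 iron sensing gene without a filter. When a library was left out, the genes that fell numbered 2 to 4 TGF-beta targets, 0 to 1 BMP targets and 2 to 4 iron sensing genes, and the intracellular regulators that rose numbered 10 to 14. With the replicate block, 29 members rose and 3 fell, Acvr1 and Bmp1 lost their calls, and 0 BMP targets fell in place of 1. Same-numbered mice correlated at 0.016, 0.031 and 0.035 in their deviations from the group means, across genes, all under 0.1, so the numbers were not taken as pairs, although each mouse correlated best with its own number. The cause of these changes was not tested. Low counts pile up at 4, and what 1 read pair is worth was not established, so values of genes with few counts are uncertain.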
